A study of Homo sapiens with 12 samples.

Results

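RBFOX1N-dCasRx-C is a programmable splicing effector in which parts of the splicing factor RBFOX1 are joined to dCasRx, a Cas13 nuclease that still binds RNA through its guide but no longer cuts it. The comparison described here sets the 4 libraries of HEK293T cells given this effector against the 2 libraries of cells given dCasRx without a splicing domain, 6 of the 12 libraries of the study. HEK293T is a transformed human embryonic kidney line. The members were chosen by effector label only. The 4 effector libraries pool 2 guides, a nontargeting guide (RBFOX1N_NT, 2 replicates) and a guide against exon 10 of MAPT for activation (RBFOX1N_MAPT, 2 replicates), and the controls carry the nontargeting guide (dCasRx_NT, 2 replicates). In every group 200 ng of effector vector and 200 ng of guide vector were transfected with X-tremeGENE 9, and RNA was taken at 48 h. All groups therefore share a transfected dCasRx and a guide vector. No dCasRx library carries the MAPT guide, and untransfected cells were not analysed here. The remaining 6 libraries carry a second fusion, dCasRx-RBM25, with the nontargeting, MAPT or CD46 guide, and serve below as a further effector for comparison.

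RBFOX proteins bind the RNA element GCAUG, with UGCAUG as the strongest form. Bound in the intron downstream of an alternative exon they are known to promote its inclusion, and bound upstream of it or within it they tend to repress it. They regulate many exons of cytoskeletal, signalling and transcription factor genes in muscle and brain. RBFOX2 is the family member that kidney lines normally express. Whether the RBFOX1 parts in the effector include the domain that binds GCAUG was not checked here.

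The 6 libraries held between 32487927 and 41225760 counted reads. RBFOX1 itself had between 0 and 6 reads in each of the 12 libraries, so the count table does not show the transgene and does not check the label. RBFOX2 was at 157 CPM (counts per 1000000 counted reads) in dCasRx_NT and 156 CPM in RBFOX1N, a log2 difference of -0.01 with a standard error (SE) of 0.07. The dCasRx_NT replicate 2 library stood apart. On the second principal component of all 12 libraries (18.2% of the variance) it lay at 70.1 and its partner at 30.3, while the RBFOX1N libraries lay between -12.7 and -3.77. For this reason the main counts below are also given for changes that pass against each dCasRx_NT library alone, or without that library. All 9 HEK293 markers examined were detected, with a summed level of 1122 to 1181 CPM in dCasRx_NT and 1182 to 1253 CPM in RBFOX1N. Of these, KRT8 and TUBB3 were higher with RBFOX1N. Markers of other lineages (fibroblast, endothelium, blood, hepatocyte, keratinocyte, skeletal muscle) were mostly too low to test. Fibroblast markers summed to 35.6 to 36.4 CPM in dCasRx_NT and to 24.1 to 29.8 CPM in RBFOX1N, with none of 5 tested passing. Skeletal muscle markers summed to 38.4 to 39.4 and to 46.2 to 48.2 CPM, with MYH3 passing.

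Expression of 20593 genes was tested with edgeR's quasi-likelihood test and Benjamini-Hochberg adjustment. With RBFOX1N, 2397 genes (11.6% of those tested) were higher and 1745 (8.47%) were lower at an adjusted p under 0.05, which together is 20.1%. A change in expression is called held here when it also passes with each guide separately in the same direction. In addition, all 4 RBFOX1N values must lie on 1 side of both dCasRx_NT values. By that rule 1376 genes (6.68%) were higher and 437 (2.12%) lower, 8.8% in all, while 45.7% of genes had no overlap between the 4 and the 2 libraries whether or not they passed. The stricter requirement that the change also pass against each dCasRx_NT library alone left 1021 genes (4.96%), 838 higher (4.07%) and 183 lower (0.889%), of which 423 were at least 2-fold higher and 62 at least 2-fold lower. Without dCasRx_NT replicate 2, 1291 genes passed and 686 were held, and without any 1 of the 4 RBFOX1N libraries 2413 to 2736 passed and 606 to 902 were held. Changes by the stricter rule ran mostly upward, while the median log2 fold change of all genes was -0.02. The size of this skew depended on the control. Among genes that passed and genes held, the split was nearer even without dCasRx_NT replicate 1 and more upward without replicate 2. Within the RBFOX1N libraries, no gene differed between the MAPT guide and the nontargeting guide by edgeR at an adjusted p under 0.05, and 418 (2.03%) had an unadjusted p under 0.05.

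The 15 largest held rises among genes with a mean of at least 5 CPM over the 6 libraries ran from 1.92 to 4.97 on the log2 scale. HMOX1 (chr22:35380361-35394214, plus strand, GRCh38), which encodes the haem-degrading enzyme haem oxygenase 1, was at 60.9 and 52.1 CPM in the dCasRx_NT libraries. It was at 467 and 431 CPM with RBFOX1N and the nontargeting guide, and at 462 and 440.5 CPM with the MAPT guide. The groups did not overlap, and both guides gave nearly the same level. The means were 56.5 ± 6.22 (SD, n = 2) and 450.1 ± 17.1 CPM (SD, n = 4), a 7.96-fold rise (log2 2.99, SE 0.10, edgeR adjusted p = 4.3e-09). The 6 RBM25 libraries had 54.3 ± 3.9 CPM (SD, n = 6), so HMOX1 was high with 1 of the 2 fusions.

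S100A2, a small calcium-binding protein gene, rose furthest in relative terms. It had 0.524 and 0.563 CPM in dCasRx_NT and 17.3, 20.3, 17.3 and 14 CPM in the 4 RBFOX1N libraries (log2 4.97, SE 0.21, adjusted p = 2.93e-08). All 4 RBFOX1N values lay far above both controls, and the RBM25 libraries had a mean of 0.169 CPM. GDF15, a secreted stress cytokine, had 57.4 and 57.2 CPM in dCasRx_NT. It had 249.5, 216, 236 and 218 CPM with RBFOX1N and a mean of 18.0 CPM with RBM25, so the 2 fusions lay on opposite sides of dCasRx alone. DNAJB5, a heat shock co-chaperone gene, had 17.1 and 15.9 CPM against 62.1, 67.5, 73.0 and 65.4 CPM (log2 2.02, SE 0.11).

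Other genes among the 15 largest rises were ADM5, ATP6V1FNB, TENT5B, MTMR11, the antisense RNAs GAS6-AS1 and ID2-AS1, and 3 genes best known from blood cells. These last were PTPN6, encoding the phosphatase SHP-1 (log2 2.31), FES, a tyrosine kinase gene (2.20), and UNC13D, a secretory granule priming factor gene (2.39). Blood markers as a list did not rise with them. Of 8 such markers 3 could be tested, their summed level was 5.57 to 6.25 CPM in dCasRx_NT and 5.85 to 6.74 CPM in RBFOX1N, and the only member that passed, HBA1, was lower. CPT1C and ENO3 complete the 15, and both also changed in splicing, as described further on. All 15 passed against each dCasRx_NT library alone, and all 15 were also higher than with RBM25.

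**Figure D1:**
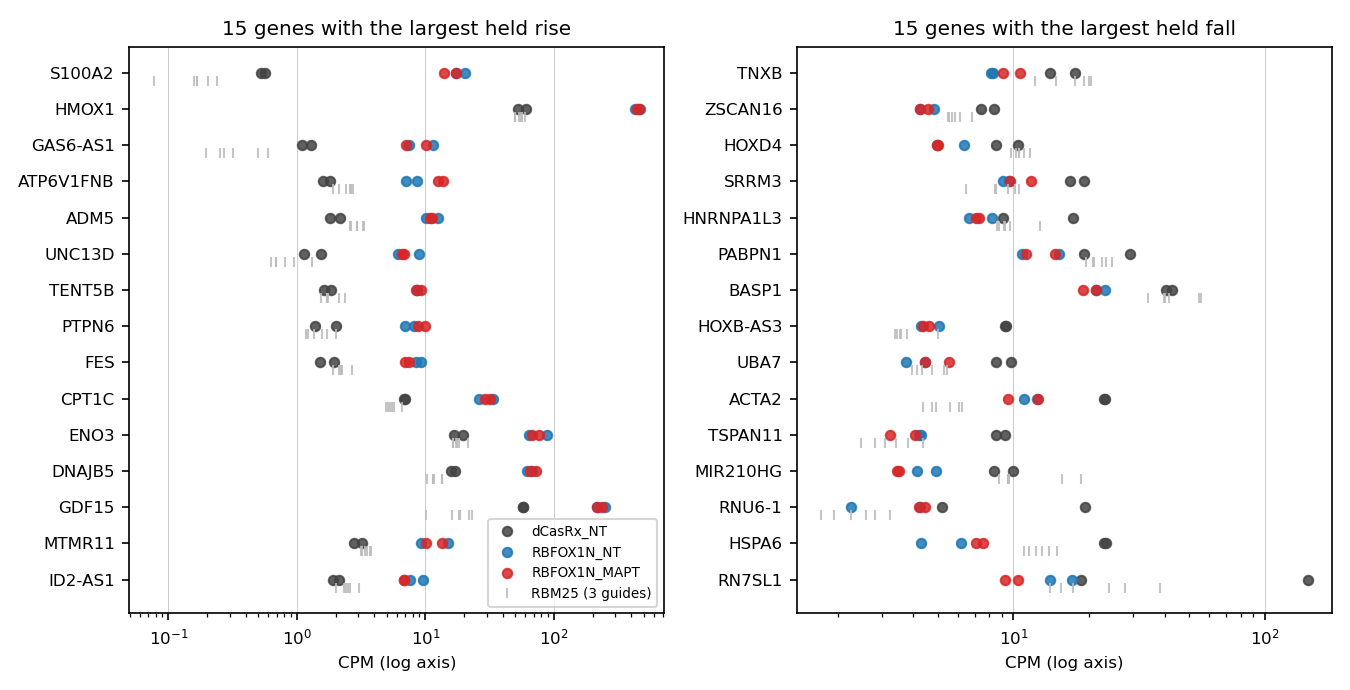
Level of each gene in CPM (log axis) in single libraries, for the 15 genes with the largest held rise (left) and fall (right); circles are dCasRx_NT and RBFOX1N libraries, grey ticks are the 6 RBM25 libraries. On the left the blue and red RBFOX1N circles lie clear of dark dCasRx_NT circles in every row, for HMOX1 between 431 and 467 against 52.1 and 60.9 CPM, while on the right RN7SL1 is high in 1 dCasRx_NT library only, at 148 CPM.

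Falls were smaller, and their support was narrower. HSPA6, an inducible HSP70 gene, had 22.9 and 23.3 CPM in dCasRx_NT. It had 6.17, 4.28, 7.09 and 7.53 CPM with RBFOX1N, below both controls in all 4 libraries (3.75-fold lower, log2 -1.91, SE 0.12, adjusted p = 6.5e-07). With RBM25 it was at 12.8 ± 1.46 CPM (SD, n = 6), between the other groups. ACTA2, encoding smooth muscle actin, fell from 23.1 and 22.9 CPM to 12.4, 11.1, 12.5 and 9.53 CPM (log2 -1.02, SE 0.12). It was lower still with RBM25, at a mean of 5.32 CPM. SRRM3, a splicing activator of short neuronal exons, had 19.1 and 16.7 CPM against 9.63, 9.10, 9.64 and 11.7 CPM (log2 -0.84, SE 0.16). RBM25 libraries had a mean of 8.94 CPM for SRRM3, and the difference between the 2 fusions did not pass (log2 0.16, adjusted p = 0.322). BASP1, a membrane signalling protein gene, had 42.6 and 40.4 CPM against 23.2, 21.2, 18.9 and 21.4 CPM.

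Of the 15 largest falls, 9 passed against each dCasRx_NT library alone and 7 were also lower than with RBM25. The largest by fitted value, RN7SL1 (log2 -2.76), an RNA of the signal recognition particle, rested on 1 control. It had 18.6 and 148 CPM in the 2 dCasRx_NT libraries and 17.1, 13.9, 9.29 and 10.4 CPM with RBFOX1N. RNU6-1, a spliceosomal RNA gene with near-identical copies, had 5.21 and 19.3 CPM in dCasRx_NT and 2.25 to 4.45 CPM with RBFOX1N. Neither passed without dCasRx_NT replicate 2.

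Immediate early genes, which encode transcription factors and regulators induced within minutes of a signal, were higher as a group. Of 12 AP-1 and ATF/MAF transcription factor genes tested, 9 rose and none fell, with a median log2 fold change of 0.53. Of 30 other immediate early genes, 22 rose and none fell, with a median of 0.71. Both shares lie above the 11.6% of all genes that were higher. Against each dCasRx_NT library alone, 6 and 17 of these rises passed. JUN, a core AP-1 subunit, had 455 and 428 CPM in dCasRx_NT and 843, 797, 847 and 885 CPM with RBFOX1N (log2 0.93, SE 0.14, adjusted p = 0.000807). FOSL2, its partner subunit, had 13.7 and 12.2 CPM against 28.2, 31.6, 33.8 and 31.7 CPM (log2 1.27, SE 0.11). KLF2 (log2 1.59), EGR3 (1.01), EGR1 (0.98) and NR4A2 (0.98), all DNA-binding factors, rose too, as did the phosphatase gene DUSP2 (0.92). JUND was at 0.07 with an adjusted p of 0.845. Against RBM25, where 20.4% of all genes were higher and 19.2% lower, 9 of the 12 and 18 of the 30 were higher and 0 and 3 were lower.

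The heat shock list moved unevenly. Of 29 chaperone and co-chaperone genes, 10 rose and 1 fell, and the median log2 fold change was 0.17. DNAJB1, an HSP40 gene, had 220.3 and 209 CPM in dCasRx_NT and 443, 439, 469.6 and 468 CPM with RBFOX1N (log2 1.08, SE 0.07, adjusted p = 7.43e-07), with no overlap. HSPB1, a small heat shock protein gene, rose by 1.08 on the log2 scale, HSPB8 by 1.46, CRYAB by 2.19 (from a low level, 0.223 to 1.02 CPM), DNAJB2 by 1.00 and the co-chaperone gene BAG3 by 0.64. HSPA1B, an inducible HSP70 gene, had 407 and 422 CPM against 838, 776, 741 and 796 CPM (log2 0.93, SE 0.08). Its near-identical neighbour HSPA1A was at 1.85 and 1.27 CPM, so the split of reads between the pair is uncertain. The constitutive HSPA8 was at 0.05 (adjusted p = 0.76) and HSP90AA1 at 0.24 (adjusted p = 0.0682). HSPA6 was the only member that fell, and the other 18 did not pass. Without dCasRx_NT replicate 2, 7 rose and 1 fell.

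Both HSPA6 and DNAJB1 carry the inverted repeat GAANNTTC, a short form of the element that heat shock factors bind, and their promoters are shown because the pair moved apart. The sequences are the 150 bases before the RefSeq start site, 5′ to 3′ on the gene's strand (GRCh38.p14), with GAANNTTC in capitals. HSPA6 lies at chr1:161524390-161524539 (plus strand) and DNAJB1 at chr19:14518398-14518547 (minus strand).
HSPA6: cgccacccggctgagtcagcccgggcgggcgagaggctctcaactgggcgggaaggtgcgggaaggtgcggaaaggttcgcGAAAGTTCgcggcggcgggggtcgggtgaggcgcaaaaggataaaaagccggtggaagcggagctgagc
DNAJB1: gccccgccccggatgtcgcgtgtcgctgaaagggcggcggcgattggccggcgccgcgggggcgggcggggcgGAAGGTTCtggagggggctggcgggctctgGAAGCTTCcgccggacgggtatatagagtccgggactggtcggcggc
The repeat reads the same on both strands. It was found in 13 of the 25 heat shock genes with a promoter of 300 bases in the RefSeq table (52.0%) and in 2377 of all 35116 promoters (6.77%). The rising genes HSPB1, HSPB8, HSPA1B and SERPINH1 hold it, and the rising genes BAG3, DNAJB2, HSPH1 and STIP1 do not in this window. The letters therefore did not separate the genes that rose from the one that fell.

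Targets of p53, the damage-activated transcription factor, split by member. Of 31 tested, 10 rose and 3 fell, and the median log2 fold change was -0.01, at the level of all genes (6 and 1 without dCasRx_NT replicate 2). BBC3, a pro-apoptotic BH3-only gene, had 69.0 and 70.6 CPM in dCasRx_NT and 208, 229, 226 and 226 CPM with RBFOX1N (log2 1.67, SE 0.20). CDKN1A, the cell cycle inhibitor p21, had 175 and 145 CPM against 363, 352, 392 and 364 CPM (log2 1.20, SE 0.12). BTG2 rose by 1.03 and SESN2 by 0.83, while MDM2, the main feedback target, was at -0.08 (adjusted p = 0.507). FDXR, a mitochondrial electron carrier gene, fell, from 101 and 103 CPM to 61.2, 58.0, 57.7 and 63.2 CPM. Set against RBM25, 25 of the 31 were higher and 1 lower, with a median of 0.54. In the same fit the list's median for RBM25 against dCasRx_NT was -0.44. The contrasts share libraries and are given side by side only.

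A list of cytoskeleton genes and targets of the transcription factor SRF also holds tubulin and keratin genes. Of its 33 tested members, 15 were higher and 4 lower, with a median of 0.26 (7 and 3 without dCasRx_NT replicate 2). One member, FLNA, also changed in splicing. CNN1, encoding calponin and with a mean under 5 CPM over the 6 libraries, had 0.728 and 0.536 CPM in dCasRx_NT and 6.23, 6.54, 7.47 and 6.94 CPM with RBFOX1N (log2 3.42, SE 0.24, adjusted p = 2.13e-06). KRT8 (keratin 8) had 30.4 and 28.6 CPM against 67.3, 66.6, 65.3 and 67.0 CPM, and neither group overlapped the other for either gene. TUBB3 (log2 1.58) and TAGLN (1.09) rose, FLNA, which encodes the actin crosslinker filamin A, rose by 0.79, and ACTA2 was the only member whose fall held. Of 21 targets of YAP and TEAD, 7 rose and 1 fell (median 0.24 over the list), and without dCasRx_NT replicate 2 these counts were 4 and 1. ANKRD1 (2.08), NUAK2 (1.69) and CCN1 (1.07) rose, while CCN2 did not pass (0.39, adjusted p = 0.0678).

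HMOX1 is a target of the oxidative stress factor NRF2, and the other targets of that factor were examined after the value of HMOX1 had been seen. Of 16 genes, 4 rose and 1 fell, and the median was 0.02. These counts were 2 and 0 without dCasRx_NT replicate 2. Beside HMOX1 these were ALDH3A1 (1.71), FTH1 (0.42) and FTL (0.22), and TXN fell by 0.29. NQO1 (-0.39, adjusted p = 0.0955), GCLM (0.05, adjusted p = 0.722), TXNRD1 (0.00, adjusted p = 0.994) and SRXN1 (-0.62, adjusted p = 0.187) did not pass.

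The counts of the other lists are to be read against the background of 11.6% higher and 8.47% lower. Of 23 targets of ATF4 in the integrated stress response, 5 rose and 1 fell, with PPP1R15A (0.97) and CEBPB (0.72) foremost. Of 18 endoplasmic reticulum chaperone genes, 2 rose. Interferon response genes went both ways, with 3 of 23 higher, among them IFIT2 (1.70), and 4 lower, among them IFI35 (-1.27). Of 12 NF-kB targets, 2 rose, NFKBIA (0.73) and RELB (0.64). Mitosis genes had 7 of 24 higher, including MKI67 (0.58) and PLK1 (0.44), and DNA replication genes 3 higher and 2 lower of 24. Cholesterol synthesis genes had 4 higher, including MVK (0.54), and 1 lower of 23 (3 and 0 without dCasRx_NT replicate 2). Replication-dependent histone genes had 0 higher and 5 lower of 27, including H4C3 (-1.79) and H4C14 (-1.74). Such mRNAs normally lack a poly(A) tail, and their level in the 2 dCasRx_NT libraries differed as well (H4C3 5.62 and 10.5 CPM, against 1.81 to 3.08 CPM with RBFOX1N). Without dCasRx_NT replicate 2 the rises numbered 3 for ATF4 targets, 0 for endoplasmic reticulum chaperones, 1 for interferon genes, 1 for NF-kB targets, 3 for mitosis and 1 for DNA replication, and the falls 1 for interferon genes and 3 for histones. Glycolysis genes had 1 lower of 19, LDHA (-0.42). Of 17 snoRNA host transcripts, 6 were lower, but none passed against each dCasRx_NT library alone. Of 13 mitochondrially encoded mRNAs, 1 was lower (MT-ND4L, log2 -1.17), and without dCasRx_NT replicate 2 its value was 0.28.

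RNA-binding protein genes changed little in level. Of 21 RBFOX, MBNL, CELF, PTBP and QKI family genes and related regulators, 1 rose (NOVA1, 0.43) and 2 fell (CELF2, -0.28, and SRRM3, -0.84). Of 20 SR protein and TRA2 genes 1 rose, of 23 hnRNP genes 1 rose and 2 fell, and of 18 nonsense-mediated decay genes 5 rose, SMG9 (0.67) the most. Without dCasRx_NT replicate 2 the calls left were the fall of SRRM3 and 1 rise among the decay genes. Medians of these lists lay between -0.05 and 0.05. Among 29 genes with exons known to respond to RBFOX proteins, 7 rose and 3 fell (median 0.00), led by MEF2D (0.85) and FGFR2 (-0.44). The counts for this list were 1 higher and 2 lower without dCasRx_NT replicate 2.

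Splicing was tested over 100378 events in 10693 genes, as percent spliced in (PSI), the percentage of reads that include an exon, retain an intron or use a splice site. Between RBFOX1N and dCasRx_NT, 1327 events (1.32%) differed by at least 10 points at an adjusted p under 0.05 in a quasi-binomial model, 669 higher (0.666%) and 658 lower (0.656%). An event is held when it passes and differs by at least 10 points in the same direction with each guide, without overlap. No p-value for each guide alone was required. By this rule 1145 events (1.14%) in 834 genes were held, 592 higher (0.59%) and 553 lower (0.551%). Without dCasRx_NT replicate 1, 791 events passed and 715 were held, and without replicate 2, 495 passed and 458 were held. Against each dCasRx_NT library alone, 297 events (0.296%) passed, 147 higher and 150 lower, and 224 of these 297 also differed from RBM25 in the same direction. Between the MAPT guide and the nontargeting guide within RBFOX1N, 1 event passed, an exon of PRKDC, and 4895 events (4.88%) had an unadjusted p under 0.05.

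Event types differed in direction. Among cassette exons, 306 of 48370 were held with more inclusion (0.633%) and 398 with less (0.823%). Retained introns went the other way, with 210 of 27885 more retained (0.753%) and 85 less (0.305%), 1.06% in all. Microexons, exons of 27 nt or shorter, were few but often changed, 13 higher (2.86%) and 5 lower (1.1%) of 454, or 3.96%. Alternative 5′ splice sites were held in 85 of 10367 cases (0.82%), 42 higher (0.405%) and 43 lower, and alternative 3′ splice sites in 43 of 13302 (0.323%). Of these held events, the cassette exons that also passed without dCasRx_NT replicate 2 numbered 100 higher and 156 lower. The introns that did numbered 81 higher and 21 lower, so the directions by type stayed.

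The largest rise was at SUMO2 on chromosome 17, which encodes a ubiquitin-like modifier. An alternative 5′ splice site there was used at 3.08% and 2.10% in dCasRx_NT and at 59.7%, 62.4%, 57.4% and 60.7% with RBFOX1N. All 4 RBFOX1N values lay more than 50 points above both controls, a difference of 57.5 points (adjusted p = 1.85e-06), and RBM25 libraries had a mean of 2.76%. The SUMO2 count of all reads did not pass (log2 -0.05, adjusted p = 0.731). SUMO2 also held a 12-nt exon at 0% in both dCasRx_NT libraries and at 18.2%, 22.2%, 15.6% and 11.5% with RBFOX1N.

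An intron of CPT1C had the largest fall. CPT1C encodes a neuronal member of the carnitine palmitoyltransferase family. Its 774-nt intron (chr19:49711962-49712735, plus strand, GRCh38) was retained at 97.8% and 98.1% in dCasRx_NT and at 40.3%, 43.6%, 37.0% and 39.6% with RBFOX1N (-57.8 points, adjusted p = 1.17e-05). The groups did not overlap, and RBM25 libraries remained at 98.4%. Counts of the gene rose at the same time, from 6.79 and 7 CPM to 26.1, 33.6, 32.0 and 29.1 CPM (4.38-fold, log2 2.13, SE 0.13). At this intron 298 of the RBFOX1N boundary reads lay at the downstream boundary and 15 at the upstream one, with 231 spliced reads, against 190, 0 and 2 in dCasRx_NT. The PSI of CPT1C therefore reflects reads across its downstream exon boundary.

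MYO9B and ENO3 had the largest falls among coding exons. MYO9B encodes a myosin that also carries a GTPase-activating domain, and the 48-nt exon lies inside the coding part of 5 GENCODE transcripts. It was included at 87.7% and 97.1% in dCasRx_NT and at 42.5%, 36.5%, 39.2% and 36.1% with RBFOX1N (-53.8 points, adjusted p = 1.54e-05), without overlap. RBM25 libraries stood at 95.5 ± 1.05% (SD, n = 6). ENO3 encodes the muscle form of the glycolytic enzyme enolase, and its 59-nt coding exon fell from 64.9% and 78.3% to 19.1%, 23.0%, 17.1% and 19.4%. A length of 59 nt is no multiple of 3, so skipping shifts the reading frame. ENO3 counts rose as well, from 16.7 and 19.6 CPM to 64.2, 88.0, 76.0 and 67.8 CPM (4.08-fold). In RBM25 libraries the ENO3 exon was at 52.8 ± 13.2% (SD, n = 6) and the gene at 18.0 CPM.

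Both exons are printed 5′ to 3′ on the plus strand from GENCODE v29 transcripts (GRCh38), since they gave the largest falls among coding exons. MYO9B lies at chr19:17210333-17210380 and ENO3 at chr17:4953051-4953109. Neither holds GCATG, which would be in capitals.
MYO9B: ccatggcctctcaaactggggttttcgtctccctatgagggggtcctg
ENO3: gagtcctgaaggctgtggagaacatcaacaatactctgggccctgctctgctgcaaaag

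Further large falls were in PPIA, which encodes the prolyl isomerase cyclophilin A, where a 157-nt exon fell from 87.7% and 84.4% to 40.3%, 31.3%, 26.2% and 34.3%, and in NFATC4, encoding a calcium-regulated transcription factor. A 759-nt intron of NFATC4 fell from 49.8% and 50.7% to 9.77%, 12.5%, 9.82% and 5.17%, with RBM25 libraries at 51.0%. A 122-nt exon of WNK4, a kinase gene of renal salt transport, was at 100% and 95.6% and fell to 58.0%, 44.7%, 53.5% and 46.0%. The WNK4 exon was at 55.8% with RBM25, and the difference between the fusions did not pass (-5.30 points, adjusted p = 0.399). SON, which encodes a nuclear speckle protein, had a 625-nt exon segment that fell by 41.0 points and was at 38.5% with RBM25. Of the other falls in the 10 named, those of IRF9 and H1FX-AS1 did not pass against each dCasRx_NT library alone. The pseudogene AMZ2P1 did not pass in a moderated t test on logit PSI, the alternative to the main model.

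Among the largest rises, introns led. The 25306-nt intron of APPBP2 rose from 0% and 1.64% to 40.3%, 44.9%, 53.1% and 42.2%, and a 39359-nt intron of RAB3GAP2 rose from 4.11% and 0.556% to 39.0%, 42.5%, 52.1% and 49.2%. CCNG2, encoding cyclin G2, had an intron at 5.51% and 4.75% against 39.8%, 49.8%, 43.9% and 44.4%, and its gene level rose (log2 1.21). PRRT2, a synaptic protein gene, had an intron at 28.6% and 19.6% against 67.8%, 69.7%, 69.8% and 65.0%, and its gene level rose (log2 1.87). A 95-nt exon of C17orf53 (now HROB, a homologous recombination factor) that is not annotated in GENCODE v29 went from 1.44% and 0% to 43.6%, 51.5%, 44.1% and 40.2%. An exon of LRRC37A3 was at 33.1% and 27.6% against 71.8% to 72.9%, and at 59.6% with RBM25. For ACSF3, a rise of 43.8 points stood beside a mean of 47.2% with RBM25, a difference between fusions of 4.19 points (adjusted p = 0.72). GNE differed mainly by its dCasRx_NT values of 72.8% and 41.3%, while RBFOX1N was at 100% in all 4 libraries and RBM25 at a mean of 95.1%. The rises in RSF1, GNE and ACSF3 did not pass against each dCasRx_NT library alone.

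**Figure D2:**
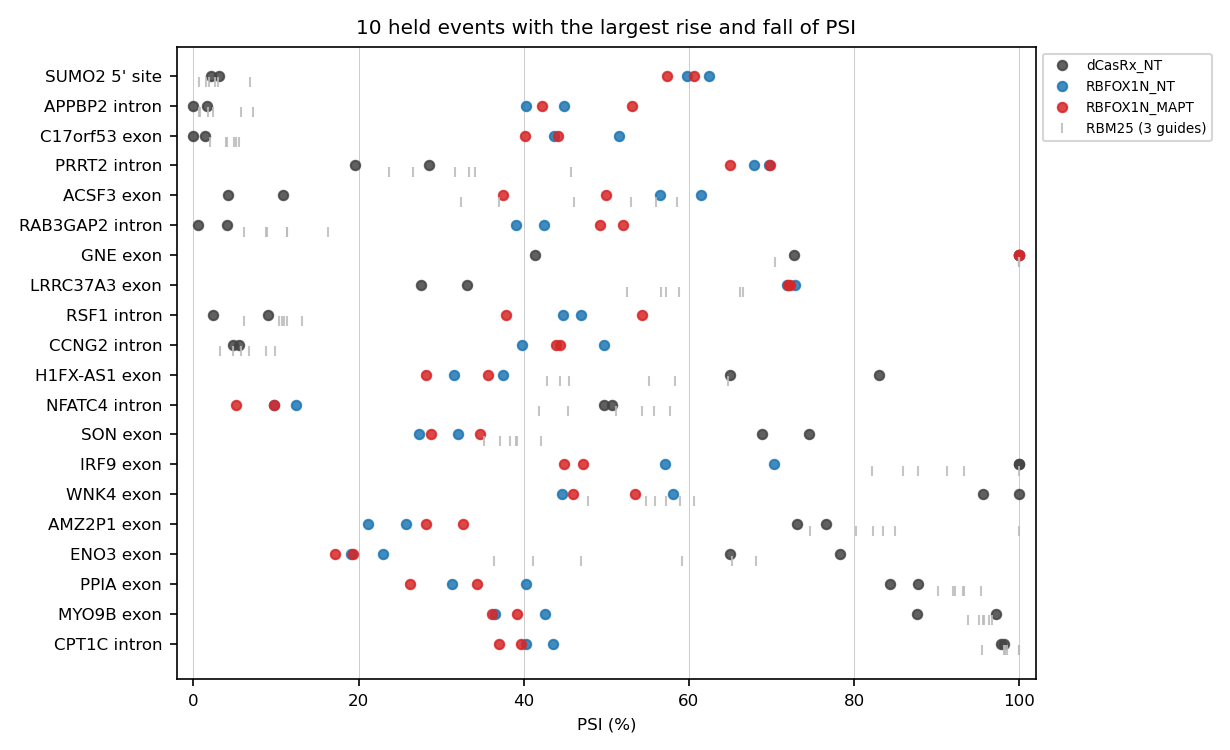
Percent spliced in (PSI) in single libraries for the 10 held events with the largest rise and the 10 with the largest fall; circles are dCasRx_NT and RBFOX1N libraries, grey ticks are the 6 RBM25 libraries. SUMO2, at 57.4% to 62.4% with RBFOX1N against 2.10% and 3.08%, has its RBM25 ticks beside dCasRx_NT, whereas those of WNK4, SON and ACSF3 lie near the RBFOX1N circles.

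Of the 20 named events, 15 passed against each dCasRx_NT library alone and 17 passed in the moderated t test on logit PSI. Counts of 7 of their genes rose by the held rule and those of 1 fell. More widely, 793 genes with a held splicing event were tested for expression, and 155 (19.5%) had a held change in expression, 139 higher and 16 lower. Among all 9957 genes with a tested event this share was 9.07%. A more highly expressed gene has more events with enough reads, and the part of level in this difference was not tested.

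Exons that RBFOX proteins are known to regulate were examined through a list of 28 genes with a tested exon. Of these genes 7 (25%) had a held exon, against 580 of 9396 genes (6.17%), and the 7 exons out of 254 tested divided into 5 lower and 2 higher. All 9396 genes had 48824 tested exons, so the listed genes had more tested exons each. Of all tested exons, 704 of 48370 cassette exons (1.46%) and 18 of 454 microexons (3.96%) were held. The part of exon number in the share of genes was not tested. The list names genes and not the exons within them. The directions known for such exons were not compared with those seen here. NUMB, which encodes a Notch inhibitor, had a 33-nt coding exon at 27.5% and 23.4% in dCasRx_NT and at 47.0%, 48.1%, 56.7% and 64.3% with RBFOX1N (28.6 points, adjusted p = 0.00648). EPB41, encoding the membrane skeleton protein 4.1R, had a 63-nt exon at 50.1% and 44.7% against 33.9%, 32.2%, 33.8% and 31.7% (-14.5 points). Neither pair of groups overlapped, and both exons stood at the dCasRx_NT level with RBM25 (25.7% and 46.7%), but neither passed against each dCasRx_NT library alone.

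MEF2D, a muscle and neuron transcription factor gene, had a 307-nt exon at 98.9% and 98.7% against 80.2%, 72.1%, 73.3% and 70.1% (-24.9 points), and TSC2, an mTOR inhibitor gene, an 82-nt exon that fell by 13.4 points. Both passed against each dCasRx_NT library alone. The sugar metabolism gene UAP1 (-12.9 points) and the kinase gene CAMK2G (12.8) gave smaller held differences. Introns of ENAH, an actin regulator (15.7 points), and PTBP2, a neuronal splicing factor (25.4 points), were also more retained. FLNA, chosen after its values were seen, had 2 exons that fell. One of 198 nt was at 79.8% and 80.2% against 41.6%, 37.4%, 38.5% and 42.1%, and one of 24 nt at 71.4% and 67.9% against 44.5%, 44.6%, 40.6% and 44.5%. Both passed against each dCasRx_NT library alone.

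Exons of NUMB, EPB41, UAP1 and FLNA are shown because their lengths of 33, 63, 48 and 24 nt keep the reading frame and their inclusion moved with RBFOX1N in both directions. They are printed 5′ to 3′ on the gene's strand from GENCODE v29 transcripts (GRCh38). NUMB is at chr14:73316390-73316422 (minus), EPB41 at chr1:29060422-29060484 (plus), UAP1 at chr1:162592735-162592782 (plus) and FLNA at chrX:154357251-154357274 (minus). None of the 4 exons holds GCATG.
NUMB: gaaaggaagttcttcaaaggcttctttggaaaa
EPB41: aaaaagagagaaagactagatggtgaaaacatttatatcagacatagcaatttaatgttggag
UAP1: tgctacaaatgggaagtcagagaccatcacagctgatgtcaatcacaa
FLNA: tgtcaatcggaggtcacgggctag

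The element was then counted in all tested exons with a sequence, on the transcribed strand. GCATG occurred in 73 of 398 held exons with less inclusion (18.3%), in 24 of 298 with more (8.05%) and in 5274 of all 46845 (11.3%). The exons with less inclusion were longer, with a median of 146 nt against 78 nt for those with more and 115 nt for all. Per 1000 bases the 3 sets held 0.951, 0.883 and 0.915 copies, so the difference in share goes with length. The longer TGCATG, which contains GCATG, occurred in 25 (6.28%), 3 (1.01%) and 1420 exons (3.03%), or 0.275, 0.102 and 0.225 copies per 1000 bases. It occurred in 3 of the 122 exons with less inclusion that passed against each dCasRx_NT library alone (0.153 per 1000 bases) and in 2 of the 57 with more inclusion (0.242), so the order of the 2 directions was not the same in this smaller set. No genome sequence was used here, so the flanking introns, where most known RBFOX sites lie, were not searched.

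Among exons that hold TGCATG and were less included, 6 were named after their values were seen. Longer exons, exons outside annotated coding sequence and those of a single chromosome were left out of this choice. Exons of PLCD1, a phospholipase gene, TNFRSF12A, which encodes the TWEAK receptor, and NAB2, a corepressor of EGR1, are printed with TGCATG in capitals (GRCh38, GENCODE v29, gene's strand). PLCD1 is at chr3:38009904-38010053 (minus), TNFRSF12A at chr16:3021215-3021319 (plus) and NAB2 at chr12:57092448-57092581 (plus).
PLCD1: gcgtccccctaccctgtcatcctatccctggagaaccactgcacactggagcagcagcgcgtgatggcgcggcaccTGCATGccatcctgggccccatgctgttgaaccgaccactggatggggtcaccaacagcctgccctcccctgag
TNFRSF12A: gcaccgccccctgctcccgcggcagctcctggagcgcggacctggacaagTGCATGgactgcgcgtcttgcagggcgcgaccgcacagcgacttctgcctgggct
NAB2: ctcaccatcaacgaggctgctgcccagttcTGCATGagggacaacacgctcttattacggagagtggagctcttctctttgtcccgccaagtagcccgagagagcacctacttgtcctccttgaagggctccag
The TNFRSF12A exon was at 94.3% and 92.0% in dCasRx_NT and at 72.1%, 66.6%, 69.7% and 78.3% with RBFOX1N (-21.5 points). It passed against each dCasRx_NT library alone, and the gene rose (log2 1.33, SE 0.15). PLCD1 fell by 30.3 points and NAB2 by 13.7 points, neither against each dCasRx_NT library alone. The other 3 were DNAAF3, DOK1 and LRRC37A, which differed by -19.9, -16.4 and -15.8 points. Like PLCD1 and NAB2, these did not pass against each dCasRx_NT library alone. For DNAAF3 the difference between the fusions did not pass either (-9.37 points, quasi-binomial adjusted p = 0.0789). Of the 6 exons, only that of TNFRSF12A passed in the moderated t test on logit PSI.

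Of the 18 held microexons, 6 passed against each dCasRx_NT library alone, in CYTH1, FLNA, C1orf35, SUMO2, MAX and CYTH2. CYTH1 and CYTH2 encode the paired exchange factors cytohesin 1 and 2, and each has an alternative 3-nt exon. The 2 exons moved in opposite directions. In CYTH1 the exon was at 76.2% and 77.7% in dCasRx_NT and at 45.5%, 50.1%, 50.1% and 47.5% with RBFOX1N (-28.6 points, adjusted p = 0.00159). In CYTH2 it was at 49.0% and 45.0% against 70.5%, 68.2%, 68.3% and 66.9% (21.5 points, adjusted p = 0.000216). A 27-nt exon of MAX, the partner of MYC, was at 32.1% and 31.2% against 52.8%, 53%, 53.6% and 51.7%. The 12-nt exon of C1orf35 fell by 14 points. DNM2, encoding the membrane fission enzyme dynamin 2, had a 12-nt exon that was 23.4 points higher, with dCasRx_NT values far apart at 22.1% and 44.5%.

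The introns with more retention were not all retained over their length. Each intron value rests on reads that cross its upstream or its downstream exon boundary. Among the 210 held introns with more retention, 90 (42.9%) had more than 80% of their boundary reads at the upstream boundary, against 2734 of 21810 tested introns with at least 20 such reads (12.5%). For 16 (7.62%) the reads lay mainly downstream, against 10.1% of all. These introns were long, with a median of 1892.5 nt against 733 nt for all tested. In addition 162 of the 210 (77.1%) directly followed an annotated first exon, against 10844 of 27885 (38.9%) of all tested and 29 of the 85 with less retention (34.1%). Of the 71 that also passed against each dCasRx_NT library alone, 60 (84.5%) followed a first exon and 38 (53.5%) had their reads upstream. This position was examined after the values had been seen.

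Above 10000 nt the pattern was nearly uniform. Of 40 held introns of that length with more retention, 37 (92.5%) had their boundary reads upstream and all 40 followed a first exon. Long introns have this layout often, since 637 of 886 tested ones (71.9%) had their boundary reads upstream and 748 of 1114 (67.1%) followed a first exon. In APPBP2 the RBFOX1N libraries together had 342 reads across the upstream boundary, 1 across the downstream boundary and 208 spliced reads, against 3, 0 and 152 in dCasRx_NT. ZC3H7A had 458 upstream and 0 downstream reads, KLC1, a kinesin light chain gene, 1145 and 0, and the co-chaperone gene PTGES3 2363 and 3. These counts describe reads that run from the first exon into the intron, without matching reads at its far end. Exceptions were MOV10 with 4 upstream and 253 downstream reads and SMARCD3 with 3 and 165. Shorter introns could have both, as in PRRT2 with 242 and 317 reads and CCNG2 with 863 and 270. In ENAH they were mainly downstream, 1352 against 64, and in PTBP2 mainly upstream, 109 against 2. The orientation was checked on introns in which an annotated exon runs past the upstream exon, where the median upstream share was 57.3%, against 40.7% where an annotated exon starts before the downstream exon.

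The guide target was examined for completeness. MAPT had 8 tested events and CD46 14, and with guides pooled 0 passed in either gene. The 93-nt MAPT exon targeted by the guide was at 4.31% and 1.05% in dCasRx_NT, at 1.33% and 2.69% with the nontargeting guide, and at 10.5% and 19.3% with the MAPT guide. Pooling the guides gave 5.78 points (adjusted p = 0.575), so this value does not hold in both groups. The MAPT gene differed by -0.10 on the log2 scale (SE 0.10, adjusted p = 0.474). The 93-nt CD46 exon differed by -8.27 points (adjusted p = 0.143) with no CD46 guide present in any of the 6 libraries.

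Set against the other fusion as a whole, RBFOX1N differed from RBM25 in 8148 genes (39.6%, 4191 higher and 3957 lower) and in 2635 events (2.63%). Of the 1021 genes that passed against each dCasRx_NT library alone, 867 also differed from RBM25 in the same direction, 746 of the 838 higher and 121 of the 183 lower. Of the 1145 held events, 675 did. These contrasts share the RBFOX1N libraries. For genes such as FDXR, UBA7 and SRRM3 and events such as the WNK4 exon, the values with the 2 fusions lay on the same side of dCasRx_NT.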

How the data were processed

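Poly(A)-selected, strand-preserving RNA-seq libraries (150-nt read pairs) were made from 500 ng of total RNA per library, with 2 biological replicates in each of 6 groups, per the labels' protocols; the labels name no batch. Gene counts were deposited as whole reads per gene with no normalization, made on build hg38 with STAR 2.7.10 and edgeR among the tools, per the submitters' processing notes. The counting's annotation and strand setting were not given in the sources used here. PSI was deposited by the authors as a percent per event, with the read support in quality fields; inclusion and exclusion reads were taken from those fields and reproduce 99.99% of 5087702 deposited percent values within 0.05 points. The count table holds 62710 genes, 62639 with a symbol.

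The members and gene lists were chosen with earlier results of these data known. Counts were fitted with edgeR 4.0.16 (R 4.3.3): TMM scaling, expression filter by group, 6 group means and 6 residual degrees of freedom. SE is the log2 fold change divided by the root of its F statistic. CPM values carry no pseudocount. Events needed at least 20 reads in each library and 24 reads of the less used form, and were tested with a quasi-binomial model of the reads, dispersion moderated across events, and a difference of at least 10 points. Named genes were the 15 largest held changes in each direction at 5 CPM or more, and members of lists that passed; named events were the 10 largest in each direction with at least 30 reads. A group of 2 libraries limits precision. On average over genes, counting error is small beside the spread between replicates (chi-square per gene 6.49 to 36.3). Genes with many reads weigh most in this average, and it need not hold for genes or events with few reads. Some items of the lists counted are not reported here by name. The scripts were tested on simulated data. Alternatives were DESeq2 1.42.0, a moderated t test on logit PSI, other filters and scaling, a replicate block, and leaving out each library. That t test follows the method of limma but did not use the package.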

Additional observations from a re-analysis of the deposited data

Results flagged for a closer look

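Among 50 groups of 4 RBFOX1N values examined for a library far from the other 3, 2 stood out, and chance gives about 1 in 20. HOXD4 was at 4.97, 6.33, 4.99 and 4.94 CPM, with 6.33 in RBFOX1N_NT replicate 2. RNU6-1 was at 2.25, 4.23, 4.45 and 4.21 CPM, with 2.25 in RBFOX1N_NT replicate 1. Both genes stayed below both dCasRx_NT values in every RBFOX1N library.

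The inclusion of a 93-nt exon of PRKDC, which encodes the catalytic subunit of a DNA repair kinase, differed between the 2 guides within RBFOX1N by -8.86 points (quasi-binomial model, adjusted p = 0.0467). It was at 96.7% and 95.5% with the nontargeting guide, at 86.8% and 87.6% with the MAPT guide, and at 97.4% and 98.4% in dCasRx_NT. With guides pooled the difference was -6.28 points, under the 10 points required. No gene differed between the guides by edgeR at an adjusted p under 0.05, and 418 had an unadjusted p under 0.05. No result of another tool is given for that contrast.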

How the results depend on the processing

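Counts moved on leaving out 1 library and, for events, with the difference required. On leaving out 1 library, genes that passed ranged from 1291 (without dCasRx_NT replicate 2) to 4412, held genes from 606 (without RBFOX1N_NT replicate 2) to 2577, events from 495 (without dCasRx_NT replicate 2) to 1092, held events from 458 to 939, and counts against RBM25 from 5819 to 8803 genes and from 2122 to 2538 events. Of the 1813 held genes, 1697 still passed without dCasRx_NT replicate 1 and 1093 without replicate 2; of the 1145 held events, 518 and 395 did. In the moderated t test on logit PSI, 615 events passed, 535 were held and 1586 differed from RBM25. In the main model these were 2265, 2103 and 6067 at 5 points, and 367, 279 and 496 at 20 points. MT-ND4L reversed, from log2 -1.17 to 0.28 without dCasRx_NT replicate 2 (-1.87 without replicate 1). Over all alternatives for the 182 named genes, 1686 values kept direction and call, 314 lost the call and 1 reversed, and of the values for the 37 named events 343 kept both, 53 lost the call and 0 reversed.

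DESeq2 gave 3655 genes, RLE scaling 4182 and no filter 4644, within 1.5 times of 4142. Replicate numbers showed little pairing of the libraries compared (correlations of deviations -0.10, -0.00 and -0.07). Between the RBM25 groups the correlations were 0.17, 0.10 and 0.10. The replicate block gave 4765 genes, 2161 held and 8601 against RBM25, and 1247, 1078 and 2573 events. With 2 controls, 1 of them apart, precision is limited by the number of libraries as well as by depth, which for events starts at 20 reads per library.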
